A study of Mus musculus with 2 samples.

Results

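The p38 mitogen-activated protein kinase module was described here by 10 genes, measured in glomeruli of mice lacking GC-A and p38 in podocytes and of their floxed controls. The genes were the 4 p38 isoforms (Mapk14, Mapk11, Mapk12 and Mapk13), the activating kinases Map3k5, Map2k3 and Map2k6, the substrate kinases Mapkapk2 and Mapkapk3, and the phosphatase Dusp10. They were chosen by name, with earlier results of these data known. Every probe set whose platform annotation gave exactly 1 symbol, and that symbol 1 of these, was taken. This gave 21 of 34945 such probe sets and 10 of 18193 genes, and no probe set with several symbols held any of the 10.

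The mice were male C57BL/6J animals homozygous for floxed alleles (fl/fl) of GC-A, the guanylyl cyclase receptor of the natriuretic peptides, and of p38. The double knockout group also carried 1 Nephrin-Cre allele (Cre/+), in which the nephrin promoter drives Cre in podocytes, epithelial cells that form part of the glomerular filter. The floxed control group had no Cre allele (+/+). At 2 months of age both groups had been fed 6% NaCl and given aldosterone for 3 weeks by osmotic minipump, at 0.2 µg per kg per minute, and neither an untreated group nor a group with Cre alone was analysed here. RNA came from glomeruli isolated by graded sieving and was hybridised to 1 array per genotype. How many mice an array represents is not stated. With 1 array per genotype no difference below has a replicate check, and higher and lower mean the double knockout array against the control array.

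p38 kinases relay stress, cytokine and hormone signals. A MAP kinase kinase kinase such as ASK1 (Map3k5) phosphorylates MKK3 (Map2k3) and MKK6 (Map2k6), which in turn phosphorylate a Thr-Gly-Tyr motif in the activation loop of p38. Active p38 phosphorylates kinases such as MK2 (Mapkapk2) and MK3 (Mapkapk3), which act on the small heat shock protein Hspb1 and on proteins that control the stability of cytokine mRNAs, and dual-specificity phosphatases such as Dusp10 switch p38 off. In the kidney p38 signalling is known from podocyte injury and from inflammation of the glomerulus. Regulation is mainly by phosphorylation, which an mRNA array does not read.

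Values are MAS5 signals, intensities on a linear scale with each array scaled to 1 trimmed mean. Signals below 52.7, the mean of the arrays' 40th percentiles, were raised to that floor before log2, and a gene or probe set counted as measured if at least 1 array reached the floor. Each gene was represented by its brightest probe set. Of 13290 measured genes, 3.53% were past 2-fold upward and 2.87% past 2-fold downward, and the median log2 difference was 0.07. In 5418 genes with a second probe set above the floor on both arrays, the log2 differences of the pair were a median of 0.20 apart, which gives a robust SD of 0.21 for 1 probe set. This spread covers measurement within these arrays and not animals. The single Npr1 probe set, for the targeted receptor GC-A, read 102 on the double knockout array against 167 on the control array, a log2 difference of -0.71. The 3′ over 5′ signal ratio of Actb was 1.29 on the double knockout array against 1.36 on the control array.

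Mapk14 encodes p38α and is taken here as the targeted p38 gene, although the isoform is not named in the labels. Its mRNA read nearly the same on both arrays. The brightest probe set (1416703_at) had a signal of 2607 on the double knockout array against 2628 on the control array, a log2 difference of -0.012. Probe set 1416704_at read 593 and 659, and 1451927_a_at read 327 and 324. The other 2 measured probe sets went opposite ways. Probe set 1459617_at read 157 on the double knockout array against 132 on the control array, and 1442364_at read 117 and 138. The 5 measured probe sets thus spanned log2 differences from -0.23 to 0.25, about the robust SD of a probe set on either side of 0, and the sixth (1426104_at), at 34.1 and 22.2, was below the floor on both arrays.

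The labels do not give the floxed exons, and the position of each probe set relative to them is likewise not known from the sources used here. A probe set that lies beyond the deleted exons cannot read the deletion, so these values do not test the label. In whole glomeruli, fewer cells of a type and less RNA per cell cannot be told apart. After recentring on glomerular cell markers (described further on), the brightest Mapk14 probe set stood at -0.60.

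**Figure D1:**
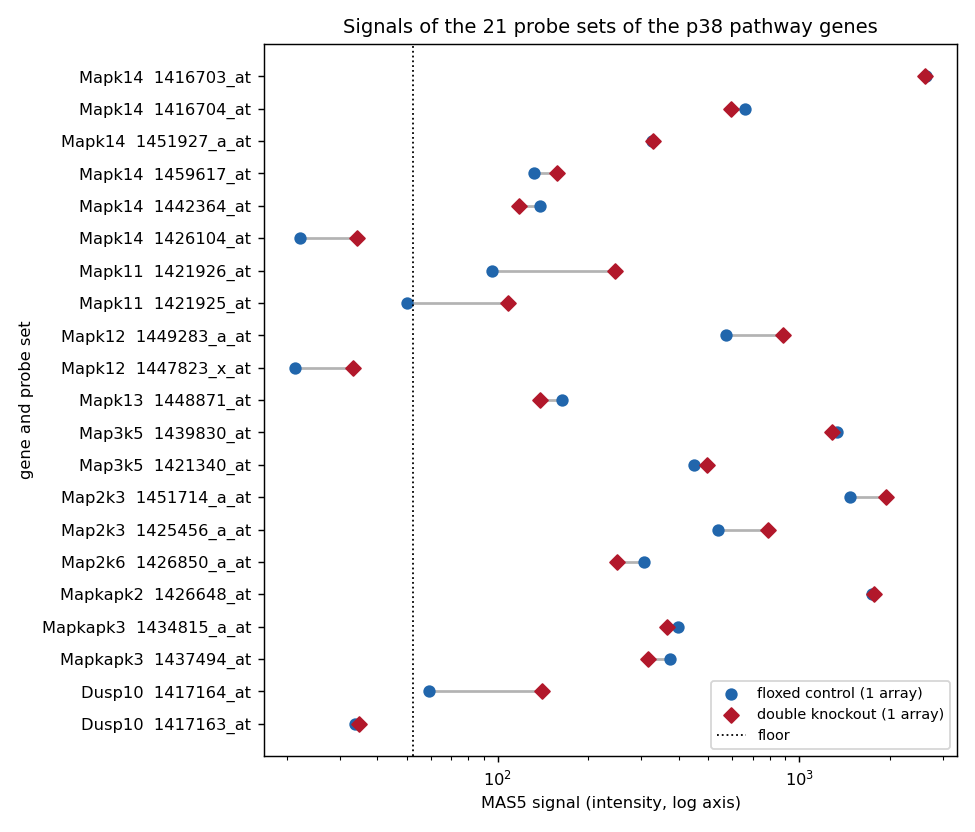
MAS5 signal (log axis) of each of the 21 probe sets of the 10 genes on the double knockout array (red diamonds) and the floxed control array (blue circles), 1 array each, with the floor of 52.7 as a dotted line. Both Mapk11 probe sets and the brighter Dusp10 probe set show the widest gaps among measured probe sets, and the Mapk14 pairs lie close together; signals of different probe sets are not comparable in level.

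The other isoforms did not move together. Mapk11, which encodes p38β, the isoform closest to p38α, was the highest of the 10 genes. Its brighter probe set (1421926_at) read 244 on the double knockout array against 95.7 on the control array, 2.55-fold higher (log2 difference 1.35). Its second probe set (1421925_at) read 109 against 50.0, and since the control signal was below the floor, the fold is at least 2.06. Both Mapk11 probe sets were therefore past 2-fold in the same direction. Of 6421 genes with at least 2 measured probe sets, 1.15% had every one at least 2-fold higher, and among 1522 genes with a mean log2 signal within 0.5 of that of Mapk11, 7.29% were at least 2-fold higher. With the floor at the 60th percentile the control signal of the brighter probe set was below the floor as well. Its log2 difference is then at least 0.44, a bound short of 2-fold.

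Mapk12 encodes p38γ, an isoform best known from skeletal muscle. Its signal was 885 on the double knockout array against 571 on the control array (1449283_a_at), 1.55-fold higher and short of the 2-fold rule, with a log2 difference of 0.63. Its other probe set (1447823_x_at), of a type that can cross-hybridise, read 33.3 and 21.4, below the floor on both arrays. Mapk13, which encodes p38δ, went the other way. It read 138 on the double knockout array against 163 on the control array on its sole probe set (1448871_at), a log2 difference of -0.24. Both differences are larger than the robust SD of 0.21, Mapk12 by a wide margin and Mapk13 barely, but this spread does not cover animals. The median absolute difference over all measured genes was 0.31, larger than that of Mapk13. After the recentring on glomerular cell markers, Mapk12 stood at 0.05 and Mapk13 at -0.82.

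The isoform genes lie in pairs. In the RefSeq table of GRCm38.p6, Mapk11 and Mapk12 are neighbours on chromosome 15, and Mapk14 and Mapk13 on chromosome 17, with 0 annotated genes lying between the members of either pair. The pair on chromosome 15 read higher for both genes, at log2 differences of 1.35 and 0.63, and the pair on chromosome 17 read -0.012 and -0.24. This is a description of 4 values.

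The 250 bases before the RefSeq start site of Mapk11, of its neighbour Mapk12 and of Dusp10 are shown because these 3 genes had the largest differences of the 10. The windows are chr15:89149607-89149856 (minus strand), chr15:89140704-89140953 (minus strand) and chr1:184034131-184034380 (plus strand) of GRCm38.p6. Capitals mark matches on either strand to 1 of 6 motifs, of which none contains another. They are the GC box with the letters GGGCGG, the CCAAT box itself, the TATA box with the letters TATAAA, the AP-1 motif with the letters TGANTCA, the CRE with the letters TGACGTCA and the E-box with the letters CACGTG. The sequences run 5′ to 3′ towards the start site.
Mapk11: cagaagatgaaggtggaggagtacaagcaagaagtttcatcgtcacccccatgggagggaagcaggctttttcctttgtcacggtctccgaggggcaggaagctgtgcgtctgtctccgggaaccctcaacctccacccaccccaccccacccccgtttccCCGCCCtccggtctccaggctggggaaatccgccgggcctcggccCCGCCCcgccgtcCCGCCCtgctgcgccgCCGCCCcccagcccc
Mapk12: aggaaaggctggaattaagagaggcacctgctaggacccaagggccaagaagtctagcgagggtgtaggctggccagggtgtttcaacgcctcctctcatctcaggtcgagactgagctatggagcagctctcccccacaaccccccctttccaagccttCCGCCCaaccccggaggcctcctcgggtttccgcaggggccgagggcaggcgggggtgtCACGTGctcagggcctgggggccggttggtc
Dusp10: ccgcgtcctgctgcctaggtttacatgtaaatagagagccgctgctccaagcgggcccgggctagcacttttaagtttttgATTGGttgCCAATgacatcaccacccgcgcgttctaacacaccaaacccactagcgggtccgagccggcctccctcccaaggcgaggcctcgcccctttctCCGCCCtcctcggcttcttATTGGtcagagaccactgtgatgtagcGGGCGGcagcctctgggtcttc

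The Mapk11 window held 4 GC boxes, beginning 89, 44, 31 and 15 bases before the start. The Mapk12 window held 1 GC box and 1 E-box, beginning 90 and 31 bases before the start, and lies inside the longest annotated span of the gene. The Dusp10 window held 2 GC boxes and 3 CCAAT boxes. A GC box was present in 8 of 14 windows of the 10 genes, against 32.7% of all 32851 windows of this length in the RefSeq promoter table, and windows of Mapk13, Map3k5 and Map2k3 held several as well. A CCAAT box was present in 33.8% of all windows and an E-box in 6.02%. In these 3 windows no match was found to the TATA box (12.4% of all windows), the AP-1 motif (6.75%) or the CRE (1.55%). A match is a run of letters and not a site of binding.

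Of the activating kinases, Map2k3 read higher, Map2k6 read lower and Map3k5 stayed near 0. Map2k3, which encodes MKK3, had a signal of 1942 on the double knockout array against 1472 on the control array (1451714_a_at), 1.32-fold higher. A second probe set (1425456_a_at) read 785 and 537, or 1.46-fold higher, so the probe sets were alike at log2 differences of 0.40 and 0.55. The direction of Map2k3 turned to -0.18 after recentring on glomerular markers. Map2k6, which encodes MKK6 and shares p38 as its substrate, read 250 on the double knockout array against 306 on the control array (1426850_a_at), a log2 difference of -0.29, the lowest of the 10 genes. That value rests on 1 probe set and is smaller in size than the median absolute difference over all measured genes, 0.31. The kinases of this tier therefore stood on opposite sides of 0 in the values as deposited, and at -0.18 and -0.88 after recentring.

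Map3k5 encodes ASK1, a kinase activated by oxidative stress that lies above both MKK3 and MKK6. Its brighter probe set (1439830_at) read 1279 on the double knockout array against 1334 on the control array, and the other (1421340_at) 493 and 447. The log2 differences of -0.06 and 0.14 were of opposite sign and within the robust SD of a probe set. Both substrate kinases stayed near 0. Mapkapk2 (MK2) read 1765 on the double knockout array against 1737 on the control array (1426648_at), a log2 difference of 0.024. Mapkapk3 (MK3) read 365 and 396 on 1434815_a_at and 315 and 372 on 1437494_at, at log2 differences of -0.12 and -0.24, on the same side of 0.

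Dusp10, also called MKP-5, removes phosphate from p38 and JNK. It was the second gene past 2-fold, with a signal of 140 on the double knockout array against 59.1 on the control array (1417164_at), 2.37-fold higher (log2 difference 1.24). The control signal lay just above the floor. The other Dusp10 probe set (1417163_at) read 34.7 and 33.8, below the floor on both arrays, so the difference rests on 1 probe set. Among 1616 genes with a mean log2 signal within 0.5 of that of Dusp10, 6.56% were at least 2-fold higher. Adding 32 to both signals in place of the floor gave a log2 difference of 0.92, short of 2-fold, and with the 60th percentile as the floor Dusp10 was not measured.

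**Figure D2:**
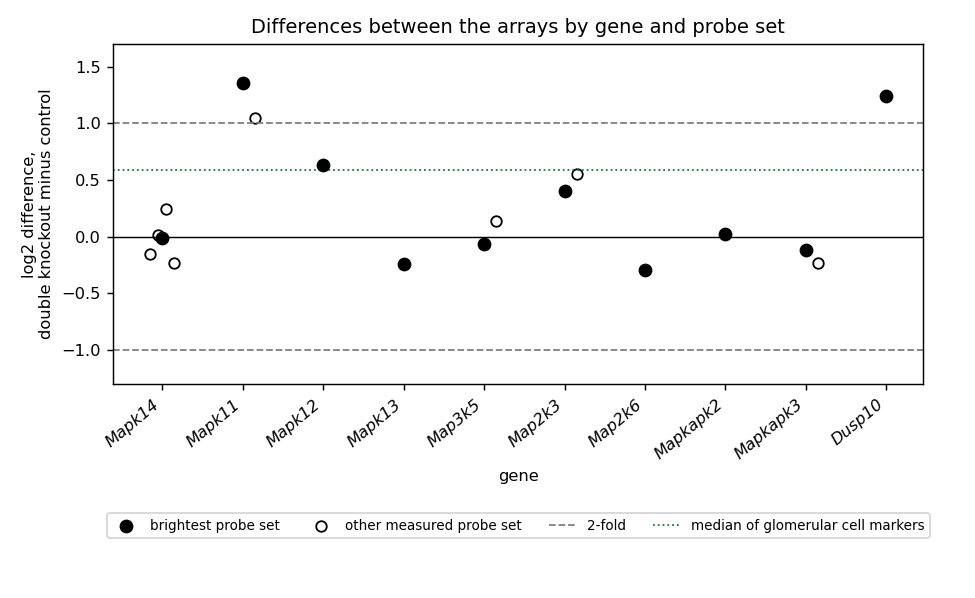
Log2 difference (double knockout minus control, 1 array each) for the 18 measured probe sets by gene; filled points are the brightest probe set, open points the others (that of Mapk11 a lower bound), dashed lines mark 2-fold and the dotted line the median of 49 glomerular cell markers (0.58). Mapk11 and Dusp10 lie above the upper dashed line, and the remaining 8 genes lie between the dashed lines.

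Over the 10 genes, all of which passed the floor, 2 stood at least 2-fold above the control and 0 at least 2-fold below it, with 5 above 0 and 5 below. Among all measured genes, 3.53% were past 2-fold upward, 2.87% were past 2-fold downward and 56.1% were above 0. A set of 10 genes is small for such a comparison. The median log2 difference was 0.0058, against 0.07 over all measured genes, and the median absolute difference was 0.27, against 0.31. The members ran from -0.29 (Map2k6) to 1.35 (Mapk11). Of 5 genes with at least 2 measured probe sets, Mapk11, Map2k3 and Mapkapk3 had all of them on 1 side of 0, while Mapk14 and Map3k5 did not; over the 6421 genes with at least 2 measured probe sets, 63.4% had every one on 1 side.

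Marker genes of several cell types differed between the arrays beside these values. The summed signal of 17 podocyte markers was 124936 on the double knockout array against 95291 on the control array, with 16 of 17 above 0 and a median log2 difference of 0.47 (-0.11 after the recentring given below). Glomerular endothelial markers (15 of 15 above 0) had a median of 0.72, mesangial and mural markers (10 of 10) of 0.79, and parietal epithelial markers (5 of 7) of 0.81. Tubule markers went the other way. The summed signal of 20 proximal tubule markers was 159533 on the double knockout array against 259131 on the control array, with 0 of 20 above 0 and a median of -0.82, and for 14 markers of the later tubule and collecting duct the median was -0.63. Macrophage and monocyte markers summed to 13303 and 7409, with 15 of 15 above 0 and a median of 0.87.

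In the podocyte, endothelial, mesangial, parietal, tubule and macrophage lists no marker was below the floor on both arrays, so the labelled tissue carried its defining markers, together with tubule RNA. Of 8 lymphocyte markers, Cd3e, Cd3d, Cd4, Cd8b1 and Cd79a were below the floor on both. None of the 10 genes is on a marker list. The part that the mix of cells plays in the Mapk11, Mapk12, Map2k3 and Dusp10 values was not tested.

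**Figure D3:**
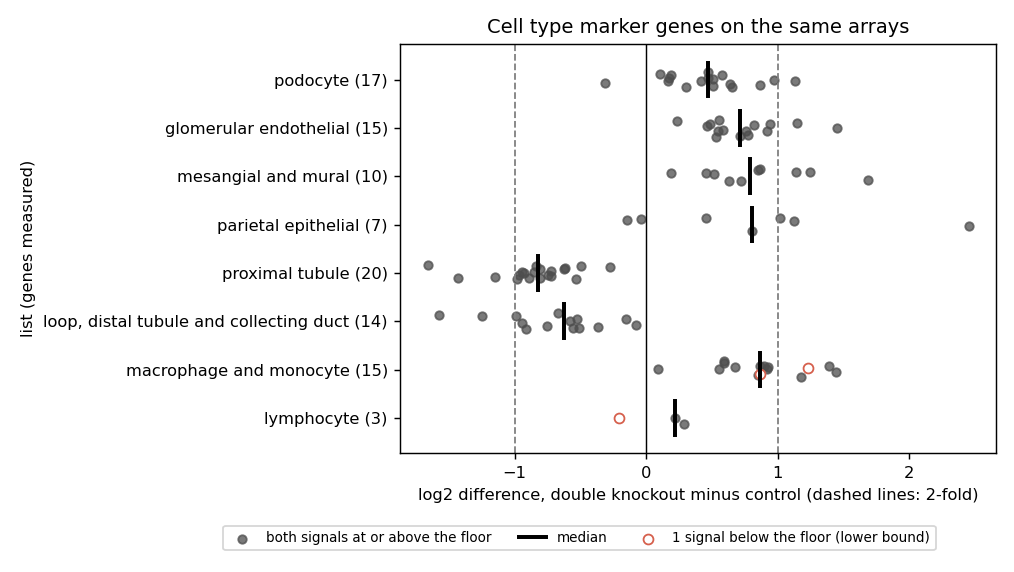
Log2 difference (double knockout minus control) of each measured marker gene by cell type list, with the number measured in brackets, the list median as a bar, and open red points where 1 signal was below the floor. Glomerular and macrophage lists lie mostly above 0, with medians from 0.47 to 0.87, and both tubule lists lie below 0.

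The 49 measured podocyte, endothelial, mesangial and parietal markers had a median log2 difference of 0.58, and the values were also read against it. This recentring moves every gene by the same amount and puts the median of all measured genes at -0.52. It left 3 of the 10 genes above 0, namely Mapk11 at 0.77, Dusp10 at 0.66 and Mapk12 at 0.05, and 0 past 2-fold in either direction. Of all measured genes, 0.55% were then past 2-fold upward and 16.3% downward. The remaining genes then ran from -0.18 (Map2k3) to -0.88 (Map2k6). Under median centring, quantile normalization and removal of a loess trend, Mapk11 stayed between 1.20 and 1.28 and Dusp10 between 1.13 and 1.18, so both were past 2-fold under these and as deposited, and short of it recentred.

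**Figure D4:**
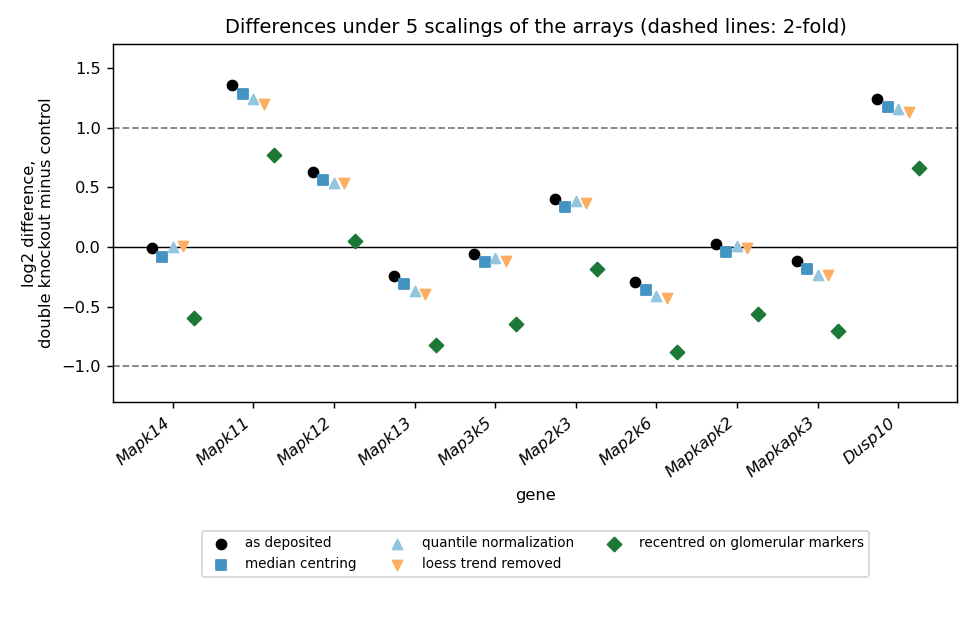
Log2 difference of the 10 genes under 5 scalings (as deposited, median centring, quantile normalization, loess trend removed, recentred on glomerular markers), 1 array per genotype, with dashed lines at 2-fold. Mapk11 and Dusp10 lie past 2-fold under the first 4 scalings and below it when recentred on glomerular markers, where the other genes lie from -0.88 to 0.05.

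The wider pathway was read from 8 lists of 103 distinct genes, none of them among the 10, of which 94 had a probe set with 1 symbol and 88 were measured. These 88 include the JNK and ERK list, which holds kinases of parallel arms for comparison. Of its 11 measured genes 0 were past 2-fold and 4 were above 0. In all, 5 of 88 (5.68%) were past 2-fold upward and 2 (2.27%) downward, against a background of 3.53% and 2.87%. The lists were chosen with earlier results of these data known, so these shares are a description and not a test. The median was 0.21, with 65 of 88 above 0, where 56.1% of all measured genes were above 0. Recentring on glomerular markers put the medians of all 8 lists below 0, as it did that of all genes; the JNK and ERK list was below 0 before it.

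At the tier of MAP kinase kinase kinases other than Map3k5, 0 of 13 genes were past 2-fold, 11 were above 0 and the median was 0.28 (-0.31 recentred). The widest differences were those of Map3k6, which encodes ASK2, a partner of ASK1, and of Map3k4, which encodes MTK1. Map3k6 read 245 on the double knockout array against 125 on the control array, 1.96-fold higher, and Map3k4 read 1539 and 929, 1.66-fold higher, with log2 differences from 0.58 to 0.76 in its 3 other measured probe sets. As deposited, both genes stood further from 0 than Map3k5, but they were named as the widest of their list. Recentred on glomerular markers, Map3k6 stood at 0.39, Map3k4 at 0.14 and Map3k5 at -0.65, so the order did not hold.

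Among 15 adaptors and regulators upstream of p38 the median was 0.06 (-0.0070 after median centring and -0.52 recentred), with 1 gene past 2-fold in each direction. Gadd45b, a stress-induced activator of MTK1, read 1992 on the double knockout array against 422 on the control array, 4.72-fold higher, and its 2 other measured probe sets had log2 differences of 1.17 and 2.33. Mapk8ip2, a scaffold that binds JNK and p38 kinases, read 29.6 and 170, at least 3.23-fold lower. Gadd45b and Mapk8ip2 kept these calls under each of the 5 scalings. The next widest were the adaptors Traf2 (1.36-fold higher) and Traf6 (1.32-fold higher). Both turned below 0 when recentred, and the 3 other measured Traf6 probe sets read from -0.40 to -0.13.

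Downstream kinases and transcription factors had 0 genes past 2-fold. The 4 measured substrate kinases other than Mapkapk2 and Mapkapk3 had a median of 0.20 (-0.39 recentred). Mknk1, a kinase of the translation factor eIF4E, and Rps6ka5 (MSK1), a chromatin and CREB kinase, were 1.26-fold and 1.24-fold higher, but other probe sets of Mknk1 read -0.22 and 0.06 and that of Rps6ka5 0.85. Both genes turned below 0 when recentred. Of 11 transcription factors that p38 or its substrates phosphorylate, or their partners, 10 were above 0 with a median of 0.35 (-0.23 recentred), led by Creb1 (1253 against 817, 1.53-fold higher) and Max (854 against 561, 1.52-fold higher). Recentred, Creb1 and Max stood at 0.03 and 0.02.

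Of 9 measured MK2 substrates 1 was past 2-fold, and the list had a median of 0.23 (-0.35 recentred). Hspb1, the small heat shock protein HSP27 that caps actin filaments, read 4397 on the double knockout array against 1943 on the control array, 2.26-fold higher, with a second probe set at 1.40 on the log2 scale. Recentring left Hspb1 at 0.59, short of 2-fold. Lsp1, an actin-binding protein of leukocytes and endothelium, was 1.82-fold higher (849 against 466). The small heat shock gene Cryab was 1.54-fold higher (4028 against 2614). Recentred, Lsp1 and Cryab stood at 0.28 and 0.04. Cdc25c was below the floor on both arrays.

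Among the 10 measured phosphatases that act on p38 or its activators other than Dusp10, 0 were past 2-fold and the median was 0.16 (-0.43 recentred). Dusp8 read 444 on the double knockout array against 271 on the control array, 1.64-fold higher, and its other probe sets had log2 differences of 0.55 and 0.96. Dusp16 read 1365 and 898, 1.52-fold higher, with another probe set at 0.35. Both encode phosphatases of JNK and p38, the same substrates as those of Dusp10, and stood at 0.13 and 0.02 when recentred. Ptpn5 was below the floor on both arrays.

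Transcripts whose synthesis or stability p38 and MK2 are known to control held, of 15 measured, 3 genes past 2-fold upward and 1 downward, with a median of 0.35 (-0.24 recentred). Ccl2, a monocyte chemoattractant, read 554 on the double knockout array against 44.3 on the control array, at least 10.5-fold higher. Cxcl2, a neutrophil chemoattractant, read 391 and 96.4, 4.05-fold higher, and Cxcl1, of the same family, 1584 and 759, 2.09-fold higher. Ccl2 and Cxcl2 were past 2-fold under each of the 5 scalings, while Cxcl1 was past 2-fold as deposited alone and its other probe sets read 0.19 and 0.47.

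Mmp9, the gelatinase B gene, read 50.2 on the double knockout array against 131 on the control array, at least 2.49-fold lower. Plaur, the urokinase receptor, was 1.62-fold higher (907 against 559). Ptgs2, the inducible cyclooxygenase, read 81.7 against 24.9, at least 1.55-fold higher. Recentred, Plaur and Ptgs2 stood at 0.11 and 0.05. Tnf, Il10 and Ccl3 were below the floor on both arrays, so no difference can be given for these cytokine genes. Macrophage markers, whose summed signals are given above, were higher beside the chemokine values, and their part in them was not tested.

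**Figure D5:**
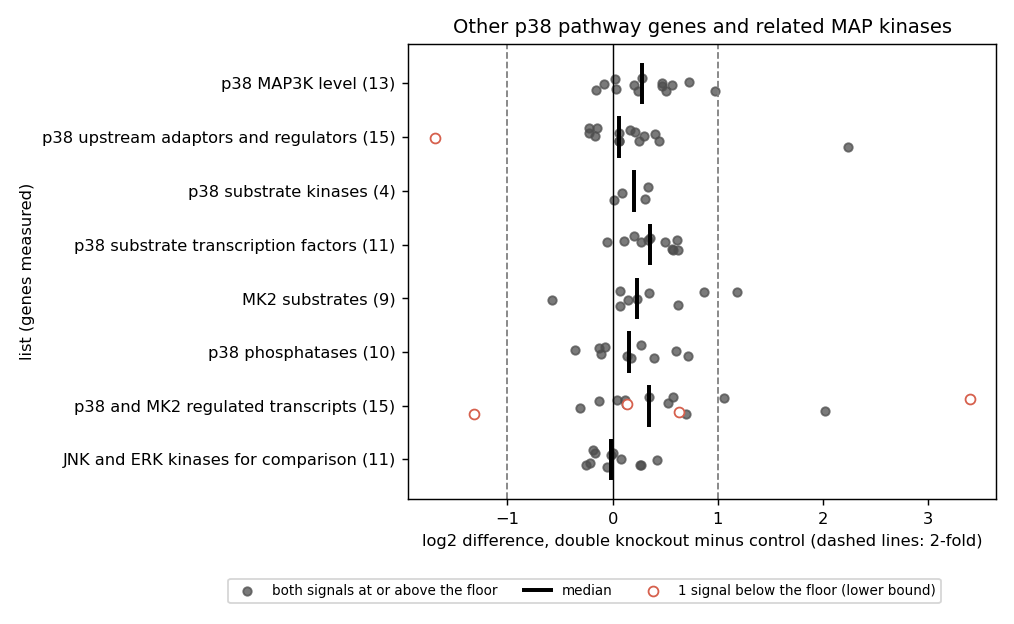
Log2 difference (double knockout minus control) of each measured gene of the 8 pathway lists, with the number measured in brackets, the list median as a bar, and open red points where 1 signal was below the floor, so that the value is a lower bound in size. List medians lie from -0.014 to 0.35, and 5 genes lie beyond the upper and 2 beyond the lower dashed line.

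The JNK and ERK kinases, the parallel arms of MAP kinase signalling, served as the comparison for the p38 kinases themselves. Of 11 measured genes 0 were past 2-fold, 4 were above 0 and the median was -0.014, with a range from -0.25 to 0.42. The widest were Nlk, at 2703 on the double knockout array against 2014 on the control array (1.34-fold higher), and Mapk7, which encodes ERK5, at 175 and 145 (1.21-fold higher), and both turned below 0 when recentred. The p38 members had a median of 0.0058 and a range from -0.29 (Map2k6) to 1.35 (Mapk11). With 1 array per genotype no test of that difference was possible.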

How the data were processed

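Glomerular RNA of 2 arrays, 1 per genotype, was labelled with a 3′ in vitro transcription kit, per the labels' protocols. The deposited values are linear intensities from MAS5, named without a version in the submitters' processing notes, and their mean without the lowest and highest 2% was 500.0 on both arrays. Because of this scaling a difference is relative to the rest of the sample. Groups were taken from the genotype labels.

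Of 45037 non-control probe sets, 34945 had 1 symbol in GEO's platform annotation, 932 several and 9160 none. All 10 member gene identifiers matched RefSeq (GRCm38.p6), used for names, neighbours and promoter sequences. Signals were floored at 52.7, and the brightest probe set represented a gene, without cross-hybridising (_x_at) sets where another existed. Named genes were every member with every probe set and, per pathway list, each gene past 2-fold and the 2 next widest. No gene was named for a like pattern, since 2 arrays give 1 difference. Members and lists were chosen with earlier results of these data known. With 1 array per group no test was run and the number of arrays limits the precision. Alternatives covered the floor, the scaling, the probe set and the size rule. Steps ran in Python 3.11.15 with pandas 2.3.3 and statsmodels 0.14.6 and were tested on simulated data.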

Additional observations from a re-analysis of the deposited data

How the results depend on the processing

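The count of 2 members at least 2-fold higher fell to 0 when the 60th percentile set the floor. Dusp10 and Mapk13 were not measured there, and the value of Mapk11 was 0.44, a lower bound. The count was 1 with a pseudocount of 32, 0 when recentred on glomerular markers and 0 under a 3-fold rule. Other settings kept it within 1.5 times, and 0 members were at least 2-fold lower under any setting run. The members' median became -0.58 when recentred. The 5 higher pathway genes became 3 when recentred, 15 under a 1.5-fold rule and 3 under a 3-fold rule. Of all measured genes, 0.55% were past 2-fold upward when recentred, 2.64% with the 60th percentile floor and 2.84% with the pseudocount. Under the 1.5-fold rule 13.7% of all measured genes were higher, and under the 3-fold rule 0.55%. The 2 lower ones (Mapk8ip2 and Mmp9) became 0 with that floor, 1 with the pseudocount and 1 under the 3-fold rule. The shares of all measured genes that were lower under these settings were 2.93%, 2.60% and 0.26%. With a higher floor fewer genes are measured and more low signals are raised to it, the control signal of Mapk11 among them. Adding a pseudocount in place of the floor makes every log2 difference smaller than that of the unfloored signals, most of all at low signals. A control signal of Mapk11 was below the floor and that of Dusp10 just above it, which limits the precision of both. No paired analysis was possible because each genotype has 1 array.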
